A study of Rattus norvegicus with 2 samples.

Results

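The Zfp genes are the zinc finger genes that keep the symbol Zfp and a number in rat nomenclature. They were studied in neural stem cells cultured from the hippocampus of Sprague-Dawley rats at postnatal day 3. A gene belonged to the set when its microarray probe carried a RefSeq mRNA accession that the RefSeq gene table assigns to such a symbol. Zfp36, Zfp36l1 and Zfp36l2, which encode RNA-binding proteins of another finger type, were left out. The rule found 145 genes with 151 probes, of 13888 named genes with 14274 probes on the array. Members were chosen by symbol and accession and by no measured value, but the set was proposed with the sevoflurane minus control differences of these arrays known. All differences below are therefore descriptions without a test.

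The data are 2 microarrays of total RNA, 1 for cells kept for 6 h under 2.4% sevoflurane, an inhaled general anaesthetic, and 1 for cells kept under 0% sevoflurane (the control). According to the labels' protocols, both cultures were grown without serum in medium with bFGF, at 37 degrees and 5% CO2, and went back to an ordinary incubator for 24 h after the gas. Other labels name only the 6 h, so the time between gas and harvest is uncertain. Each group has 1 array and no replicate, and the labels do not say if its RNA came from 1 culture or from several.

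Most Zfp proteins bind DNA through rows of C2H2 zinc fingers, each of which holds a zinc ion between a pair of cysteines and a pair of histidines. Many of them also carry a KRAB domain, which recruits the co-repressor TRIM28 and, through it, enzymes that place silencing marks on chromatin. Targets of such repressors include transposable elements and imprinted regions, and many of the genes lie in clusters that grew by duplication. Other members work outside transcription, for example on ribosomes, on RNA or at the mitotic spindle.

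As a family, Zfp genes were lower in the sevoflurane sample than most genes. Of the 145 members, 136 were measured, which means well above background on both arrays. Each array was scaled to its 75th percentile, and a difference is the sevoflurane level minus the control level in log2 units. At least 2-fold (1 log2 unit) served as the size rule. By it, 25 of the 136 members were lower (18.4%), where 11.2% of the 10028 measured genes were lower. Only 11 members were higher (8.09%), where 28.2% of all measured genes were higher. The median difference was -0.35 for the Zfp genes and 0.27 for all measured genes, a distance of -0.61, and 103 of the 136 members (75.7%) lay below the median of all genes. The highest member by far was Zfp385d, at 4.02.

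The balance of higher and lower members depended on the scaling. The distance of their median from that of all genes moved less between scalings, but was smaller among bright genes. On this scale 30.6% of the members past the size rule were higher. After an intensity-dependent correction, which removes the trend of the difference with brightness over the whole array, 1 member was higher and 32 were lower (3.03% higher), against backgrounds of 15% and 15.5%. After quantile normalization 1 was higher and 53 were lower (1.85% higher), against 13.6% and 19.6%. The authors' deposited table gave 1 and 51 of 135 members (1.92% higher), against 13.6% and 19.2%. Normexp background correction gave 8 and 15 (34.8% higher), against 23.1% and 8.45%. Scaling on the 75th percentile of detected probes gave 13 and 17 (43.3% higher), against 30.9% and 9.49%, and median scaling 1 and 96 (1.03% higher), against 10.5% and 43.5%. The median of all measured genes itself moved to 0.00 (correction), -0.10 (quantile and deposited values), 0.32 (normexp), 0.39 (detected probes) and -0.83 (median scaling). Read against that shift, the Zfp median lay lower by a similar step each time, with distances of -0.58 (correction), -0.60 (quantile and deposited values) and -0.64 (normexp). Median and detected-probe scaling subtract a constant and cannot change it. Without a filter on dim probes 18 members were higher and 25 lower of 144, against 46.1% and 8.69% of 13862 genes. A 1.5-fold rule gave 22 and 56, against 38.8% and 20%.

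**Figure D1:**
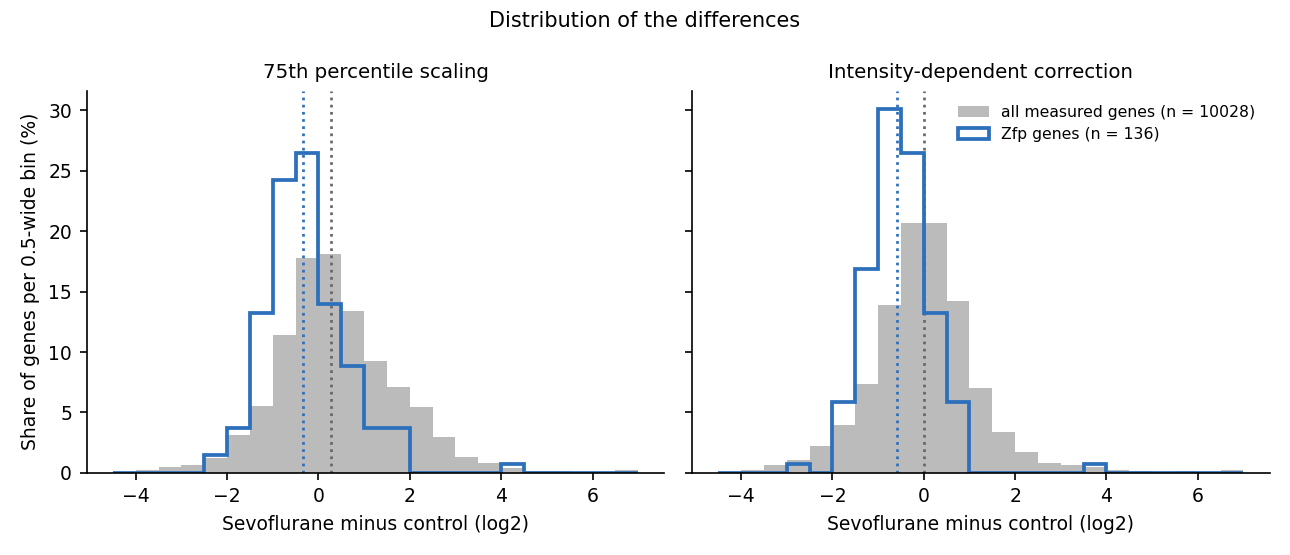
Share of genes (percent per bin of 0.5 log2 units) by sevoflurane minus control difference, for the 136 measured Zfp genes (blue outline) and all 10028 measured genes (grey), with 75th percentile scaling (left) and after the intensity-dependent correction (right); dotted lines are medians and values beyond the axis are counted in the end bins. The Zfp genes peak to the left of all genes in both panels, with medians of -0.35 and -0.59, and Zfp385d stands alone on the right.

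Brightness matters here because the arrays differ most for dim probes. The processed signals are not scaled between arrays, and an equal scaled level corresponds to a control signal 1.93 times the sevoflurane signal. Zfp genes had a median signal of 175 under sevoflurane and 609 in the control, against 257 and 468 for all measured genes. When the measured genes were divided by mean level into 5 equal groups, the median of all genes was 1.53 in the dimmest group and -0.00036 in the brightest. Zfp genes lay below it in each group. The 19 members of the dimmest group had a median of 0.83, and 8 of them were at least 2-fold higher (42.1%) with 0 lower, where 67.1% of all genes of that group were higher and 3.04% lower. After the intensity-dependent correction 0 of the 19 were higher (against 16.65% of all genes there) and 4 lower (21.1%, against 18.5%). The 26 of the second group had a median of -0.25 against 0.54 for all genes there. The 48 members of the middle group had a median of -0.79 against -0.02, and 14 of them were lower (29.2%, against 15.7% of all genes there) and 1 higher (2.08%, against 18.2%). The next group (28 members) had -0.42 against -0.14, and the brightest (15 members) -0.42. Among the 5014 brighter measured genes, 12 of 65 Zfp genes were lower (18.5%, against 13.3% of all) and 0 were higher (against 10.9%). Their median was -0.41 from that of all the brighter genes, a smaller distance than over all levels, and -0.37 after the correction. After the intensity-dependent correction 9 of these 65 were lower (13.8%), against 11.6% of all, and 0 were higher (against 11.3%).

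**Figure D2:**
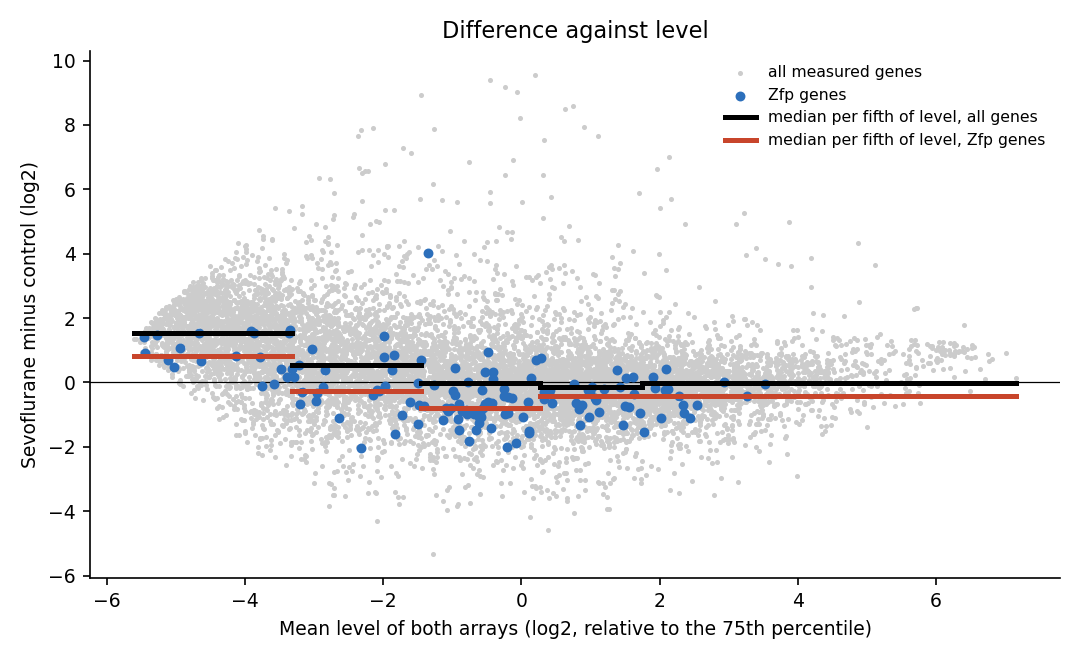
Sevoflurane minus control difference (log2) against the mean level of both arrays (log2, relative to the 75th percentile) for all measured genes (grey) and the 136 Zfp genes (blue), with the medians of 5 equal groups by level as bars. The red bars of the Zfp genes lie below the black bars of all genes in each group, from 0.83 against 1.53 in the dimmest to -0.79 against -0.02 in the middle one.

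The lowest members spanned a wide range of brightness. Zfp786 had a signal of 155 under sevoflurane and 1204 in the control, a difference of -2.01 ± 0.21. Signals are given in this order throughout. The error here and below combines Feature Extraction's own error of each spot, which is technical and leaves out differences between cultures. Its lowest, median and highest values over the measured members were 0.204, 0.205 and 0.419. Each member probe had 1 usable spot per array, so this error is not a spread between repeated spots. Zfp292, a gene linked to neurodevelopmental disorders in humans, had signals of 179 and 1257 and a difference of -1.86 ± 0.20. Both genes stayed lower by more than 2-fold in the other ways of scaling, at -1.93 and -1.77 after the correction and -1.79 and -1.72 after normexp.

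Zfp93 was the lowest of all members at -2.03 ± 0.22, which is 4.07-fold, but its sevoflurane signal was only 35.7 (control 280). Its difference was -0.65 after normexp and -2.91 after quantile normalization, so its size is uncertain. Zfp68 was similar, with signals of 58.4 and 340, a difference of -1.60 and -0.82 after normexp. Its other probe gave -1.91, so both probes of this gene agree in direction. Zfp84 (113 and 763) was at -1.81, Zfp667 (136 and 731) at -1.48 and Zfp39 (115 and 617) at -1.48, and these 3 stayed past 2-fold after normexp, between -1.39 and -1.14.

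Among bright genes, Zfp512b had signals of 725 and 4036 and a difference of -1.53 ± 0.20. Zfp90 was at -1.58 (225 and 1291), Zfp846 at -1.49 (232 and 1255), Zfp867 at -1.41 (162 and 832) and Zfp955a at -1.33 (407 and 1978). Zfp566 was just past the 2-fold line at -1.06 and Zfp316 (76.5 and 295) lay on it, and Zfp518a and Zfp317 just short of it at -0.99 and -0.98, so the count of 25 depends on where the line is drawn. The 25 lower members had control signals from 163 (Zfp385b) to 5552 (Zfp266). In all 6 settings compared (median scaling left out), 11 members were lower by at least 2-fold. That is 8.15% of 135 members with a value in each setting, near the 6.85% of 9971 genes that met the same rule. They were Zfp39, Zfp57, Zfp84, Zfp90, Zfp292, Zfp512b, Zfp667, Zfp786, Zfp846, Zfp867 and Zfp955a. Of the 135 members, 78 were below 0 in all 6 settings (57.8%, against 31.3% of all genes) and 23 above 0 in all 6 (17.0%, against 42.8%).

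**Figure D3:**
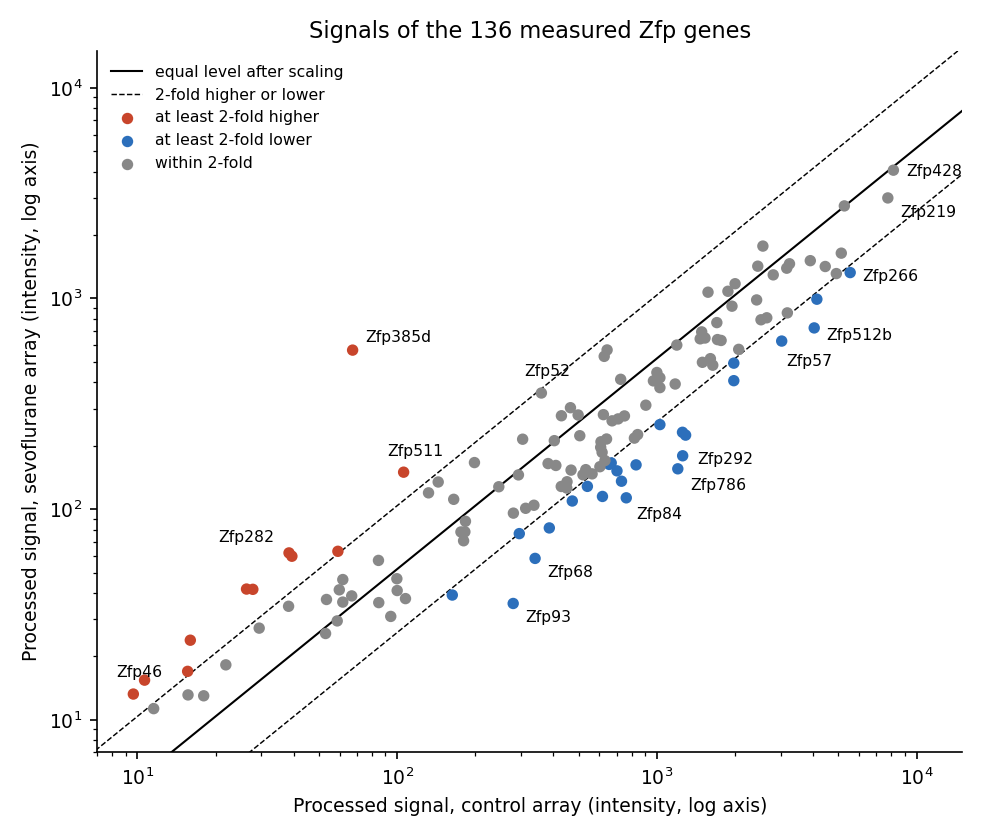
Processed signal (intensity, log axes) of the 136 measured Zfp genes on the control array (x) and the sevoflurane array (y), each point 1 gene with 1 spot per array; the solid line marks equal level after scaling and the dashed lines 2-fold. The 25 lower genes (blue) have control signals of 163 to 5552. The 11 higher genes (red) all have control signals of 106 or less, but the control signal is itself part of the difference that sorts the genes. On the sevoflurane array the signals overlap, at 35.7 (Zfp93) to 1328 (Zfp266) for lower genes and 13.3 (Zfp46) to 569 for higher ones. Zfp385d, at 569, is far above the other higher genes there.

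On the higher side, Zfp385d stood alone. Its signals were 569 and 67.4, a difference of 4.02 ± 0.21, or 16.3-fold. It ranked 119 from the top among 10028 measured genes and was at 3.82 after the correction, 3.62 after quantile normalization, 3.61 in the deposited table and 3.22 after normexp. It was the 1 member at least 2-fold higher in all 6 settings (0.741%, against 12.6% of all genes), and it rests on 1 probe. Its relatives on the array went the other way. Zfp385a, which encodes a partner of p53 that favours cell cycle arrest genes, had 3 probes, with signals of 211 to 226 against 825 to 846. Their differences were -0.95, -1.02 and -1.04, so the brightest probe, which stands for the gene, was just inside 2-fold and the other two just past it. Zfp385b was at -1.11 (39.1 and 163), at -1.82 after the correction and at -0.38 after normexp.

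The other 10 higher members were dim, with control signals between 9.64 (Zfp46) and 106 (Zfp511). Zfp282 was at 1.64 (62.0 and 38.3), Zfp819 at 1.61 (41.8 and 26.3) and Zfp689 at 1.55 (59.8 and 39.3). The correction brought these 3 to 0.60, 0.26 and 0.51. Zfp511 was at 1.45 (150 and 106), and the correction left it on the 2-fold line, just short of it. Zfp54, Zfp46, Zfp956 and Zfp112 were higher by at least 2-fold on the main scale but below 0 after the correction, so their direction is not settled. Zfp653 and Zfp54 were just past the line at 1.04 and 1.07, and Zfp52 and Zfp709l1 just short of it at 0.93 and 0.91. Among brighter members no difference reached 2-fold upward. Zfp52 had nearly equal signals of 356 and 359, Zfp639 was at 0.77 (570 and 643) and Zfp652 at 0.71 (531 and 627). Zfp394, Zfp575, Zfp524 and Zfp707 were between 0.32 and 0.42, and Zfp386 was at 0.18.

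Of the 9 members not measured on both arrays, 5 were well above background on the sevoflurane array only and 0 on the control array only. These 5 are 3.45% of the members, whereas 15.4% of 13862 named genes were detected in that way and 1.44% on the control array only. The lowest signal called well above background on the control array was 8.54, which gives lower bounds for the fold. Zfp605l1 (27.7 and 2.76) was at least 6.25-fold higher and Zfp475 (26.6 and 1.99) at least 6.01-fold higher. Zfp352 and Zfp474 were at least 3.96-fold and 3.91-fold higher, and Zfp583 at least 3.44-fold. These bounds hold for the 75th percentile scale. Zfp583 was at 0.50 after the correction and -0.55 after quantile normalization, so its direction is not settled, and Zfp352 was at 0.71 after quantile normalization. All 5 had sevoflurane signals below 28, in the range where the arrays differ most. Zfp541, known from male germ cells, was not well above background on either array, nor were Zfp775 and Zfp949, and Zfp483 had no usable spot.

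Like most measured members (69.1%), those with a known part in neural development were mostly below 0, apart from Zfp24 and Zfp365. The list had 6 measured genes, with 0 higher, 1 lower and a median of -0.55, where 28.2% of all measured genes were higher and 11.2% lower. Zfp292 was the lower gene. Quantile normalization and the deposited values also put Zfp354c past 2-fold, at -1.03 and -1.04. That made 2 lower in each (against 19.6% and 19.2% of all genes). Zfp521, which drives embryonic stem cells towards neural fate, had signals of 573 and 2066 and differed by -0.90, just inside 2-fold. Zfp354c was at -0.97 (217 and 820) and Zfp260 at -0.20 (768 and 1702). Zfp24, needed for myelin formation by oligodendrocytes, was at 0.16 (1424 and 2447), within the error of 0.20. Zfp365, which encodes a partner of the neuronal protein DISC1, was at 0.80 (120 and 132) and at 0.35 after the correction.

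Of 5 measured genes tied to pluripotency, imprinting or core promoters, 2 were lower and 1 was higher, with a median of -0.68, where 11.2% of all measured genes were lower and 28.2% higher. After the correction 1 was lower and 0 were higher. Zfp57, which keeps methylation at imprinted regions through its KRAB domain, had signals of 628 and 3025 and differed by -1.32 ± 0.20. It stayed past 2-fold after the correction (-1.15), normexp (-1.20) and quantile normalization (-1.23). Zfp281, a regulator of pluripotent cells, was at -1.11 (992 and 4132) but at -0.97 after the correction and -0.88 after normexp. Zfp143, which activates promoters of small nuclear RNA genes, was at -0.68 (197 and 608). Zfp217, whose human counterpart is amplified in breast cancer, was the higher gene at 1.53 (41.6 and 27.8), but at 0.20 after the correction. Zfp322a was dim (27.2 and 29.4) and changed sign, from 0.83 to -0.63 after the correction.

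Members that act on ribosomes, RNA, the spindle or p53 included several bright genes with small differences. The list had 11 measured genes with a median of -0.20, and Zfp385d and Zfp385b were its 1 higher and 1 lower gene, against 28.2% higher and 11.2% lower among all measured genes. Zfp207, which loads a checkpoint protein at kinetochores, was among the 5 brightest members with signals of 2751 and 5272, and differed by 0.01 ± 0.20. Zfp593 and Zfp622, both involved in making the large ribosomal subunit, were at 0.02 (211 and 403) and -0.20 (1462 and 3242). Zfp598, a ubiquitin ligase that detects collided ribosomes, was at 0.15 (1082 and 1878). Zfp330 and Zfp830 were at -0.17 and -0.22. Zfp148, which binds GC-rich promoters, was at -0.42 (1512 and 3898), and Zfp746, a substrate of parkin, at -0.50 (377 and 1027). The others of the 5 brightest members were Zfp428 (4066 and 8144) at -0.06, Zfp219 (3002 and 7752) at -0.42, Zfp358 (1642 and 5131) at -0.70 and Zfp266 at -1.12. In the brightest of the 5 level groups, 3 of 15 members were at least 2-fold lower (20%, against 10.4% of all genes there). These were Zfp266, Zfp281 (-1.11) and Zfp512b (-1.53), and 0 of the 15 were higher (against 9.22%). The 114 measured members in none of these lists had 21 lower and 9 higher genes and a median of -0.37.

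**Figure D4:**
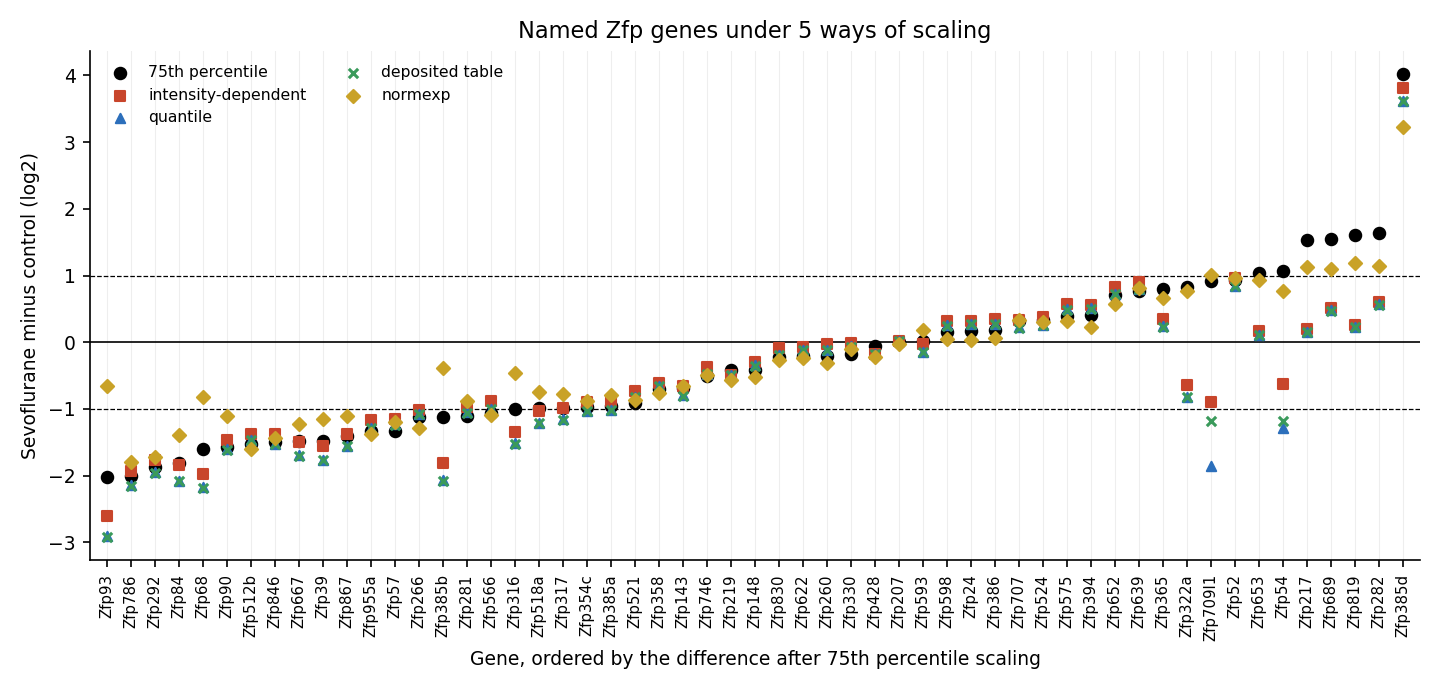
Sevoflurane minus control difference (log2) of the named Zfp genes, ordered by the value after 75th percentile scaling (black), with the intensity-dependent correction (red), quantile normalization (blue), the deposited table (green) and normexp (yellow); dashed lines mark 2-fold. The points of Zfp786 lie close together (-2.15 to -1.79), whereas those of a dim gene such as Zfp54 (-1.29 to 1.07) spread across 0, and Zfp385d stays at 3.22 or above.

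Adjacent genes were compared because zinc finger genes often lie in clusters. In the gene order of the GRCr8 assembly, 32 measured members lay in 13 runs of neighbouring Zfp genes. Of these 32, 7 were lower by at least 2-fold, 3 were higher, and their median was -0.39. The 104 other measured members, which include those with no measured Zfp neighbour in their run, had 18 lower and 8 higher and a median of -0.35. Over all measured genes 11.2% were lower and 28.2% higher. In the run of Zfp786, the next genes Zfp398 and Zfp282 were at 0.38 and 1.64 and Zfp956 at 1.48, against -2.01 for Zfp786 itself. After the correction Zfp398 and Zfp956 were below 0, at -0.41 and -0.30, as was Zfp786 at -1.93, and Zfp282 was at 0.60. In another run, Zfp26, Zfp426, Zfp266 and Zfp846 were all below 0, as were 69.1% of all measured members. Zfp26 was at -1.17 (109 and 473), Zfp426 at -0.63 (215 and 640), Zfp266 at -1.12 (1328 and 5552) and Zfp846 at -1.49 (232 and 1255). With the correction applied, the values were -1.30, -0.58, -1.02 and -1.38, and 80.1% of all measured members were below 0.

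The promoters of these 4 neighbours are shown because the genes lie side by side and have differences of the same sign. Each is the 250 bases before the gene's start in the RefSeq table for GRCr8, on the strand of the gene, at chr8:27261650-27261899 (minus strand, Zfp26), chr8:27305058-27305307 (minus, Zfp426), chr8:27337540-27337789 (minus, Zfp266) and chr8:27396061-27396310 (plus, Zfp846). Capitals mark matches to the motifs named in the next paragraph.
Zfp26: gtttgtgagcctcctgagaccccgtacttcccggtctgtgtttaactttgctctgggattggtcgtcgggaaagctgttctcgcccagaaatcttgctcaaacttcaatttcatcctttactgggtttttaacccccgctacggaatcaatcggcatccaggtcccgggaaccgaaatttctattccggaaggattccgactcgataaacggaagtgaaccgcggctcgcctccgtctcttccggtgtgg
Zfp426: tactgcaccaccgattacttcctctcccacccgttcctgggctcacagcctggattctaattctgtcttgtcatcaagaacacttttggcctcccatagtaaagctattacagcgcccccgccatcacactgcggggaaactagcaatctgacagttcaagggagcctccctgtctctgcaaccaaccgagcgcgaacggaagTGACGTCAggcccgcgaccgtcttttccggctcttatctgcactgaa
Zfp266: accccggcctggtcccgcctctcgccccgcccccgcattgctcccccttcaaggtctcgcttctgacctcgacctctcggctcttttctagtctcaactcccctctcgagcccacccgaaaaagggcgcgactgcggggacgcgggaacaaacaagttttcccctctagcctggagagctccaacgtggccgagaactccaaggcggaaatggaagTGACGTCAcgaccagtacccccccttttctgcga
Zfp846: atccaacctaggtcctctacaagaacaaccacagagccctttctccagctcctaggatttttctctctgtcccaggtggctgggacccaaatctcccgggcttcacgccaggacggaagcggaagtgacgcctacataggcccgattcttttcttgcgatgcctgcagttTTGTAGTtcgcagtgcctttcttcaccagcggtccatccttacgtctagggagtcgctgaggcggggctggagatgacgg

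Zfp426 and Zfp266 both held the cAMP response element letters TGACGTCA near the gene's start, Zfp846 held TTGTAGT, the reverse strand of ACTACAA, and Zfp26 held none of the motifs searched. The search covered both strands of the 300-base windows (250 before to 50 after the start) of 111 measured members that the promoter table names. ACTACAA, part of the sequence that Zfp143 itself binds, was in 9 of the 111 (8.11%), in 3.88% of 8225 measured genes and in 3.40% of 27457 genes in the table. TGACGTCA was in 4 (3.60%, against 3.22% and 1.91%). AAGATGGC, the YY1 letters, was in 10 (9.01%, against 5.13% and 3.44%), CCGGAAGT (ETS) in 11 (9.91%, against 7.83% and 4.01%) and the NRF1 motif in 12 (10.8%, against 9.23% and 4.71%). TGACNNNGC, the antioxidant response element, was in 12 (10.8%, against 14.7% and 12.2%), TGANTCA (AP-1) in 5 (4.50%, against 5.16% and 7.33%) and TATAAA in 11 (9.91%, against 8.44% and 14.3%). Some of these can overlap, as TGANTCA and TGACNNNGC do. Zfp promoters had a median GC content of 58.3% and 18 CpG pairs, against 60% and 20 for measured genes and 52.3% and 7 for the whole table. When the 111 members were ranked by CpG pairs into 3 groups of 37, the group with the most (22 to 43) had a median difference of -0.54, against -0.20 and -0.15 in the other two. That group was also the brightest, with a median control signal of 1000.4 against 408 and 465, and the part of brightness in this was not tested. After the correction the medians were -0.73, -0.56 and -0.52.

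Among the KRAB partners, 16 of 29 listed genes were measured, with 2 higher, 1 lower and a median of -0.13. Of all measured genes 28.2% were higher and 11.2% lower, and their median was 0.27. The list's median was -0.38 after the correction and -0.49 with quantile normalization. It was -0.68 from the deposited values, which have no value for Atf7ip, 1 of the 2 higher genes. The medians of all measured genes in these settings were -0.0015, -0.10 and -0.10. Trim28, the co-repressor itself, had signals of 4971 and 15297 and differed by -0.68. It was at -0.96 after the correction and past 2-fold in the deposited values (-1.06) and with quantile normalization (-1.05). Smarcad1, a chromatin remodeller that binds TRIM28, was the lower gene at -1.60 (275 and 1606). Atf7ip, a partner of the methyltransferase SETDB1, was higher at 1.84 (149 and 80.2) and at 1.31 after the correction. Suv39h1, a histone methyltransferase gene, was higher at 2.50, but its control signal was 9.25 and it was at 0.80 after the correction. Setdb1 was not measured here.

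Other zinc finger families were set beside the Zfp genes without a test of the difference. Of 32 measured Zbtb genes, whose proteins join zinc fingers to a BTB domain, 5 were lower and 4 higher, with a median of -0.08. Among all measured genes 11.2% were lower and 28.2% higher. After the correction 8 were lower and 1 higher (against 15.5% and 15% of all genes). The Zbtb median was then -0.66, against -0.59 for the Zfp genes. After quantile normalization 14 Zbtb genes were lower and 0 higher (against 19.6% and 13.6%), with a median of -0.87, against -0.71 for the Zfp genes. The deposited values gave the same counts (against 19.2% and 13.6%), and a median of -0.87, against -0.70 for the Zfp genes. After normexp 2 Zbtb genes were lower and 3 higher (against 8.45% and 23.1%), and their median was 0.27, against -0.32 for the Zfp genes. Only 5 Zscan and Zkscan genes were measured (0 lower, 2 higher, median -0.05) and 2 Znf genes, at -0.62 (Znf57l) and -1.41 (Znf846).

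Cell type markers also differed between the arrays, in directions that varied by cell type. In bulk RNA fewer cells of a type and less RNA per cell cannot be told apart. All 8 listed neural stem cell markers were measured, 3 of them higher and 0 lower, with Nes at 1.28, Sox2 at -0.83 and Pax6 at -0.99. Of all measured genes 28.2% were higher and 11.2% lower. After the correction 2 of these 8 markers were higher and 0 lower (against 15% and 15.5% of all genes). After normexp 3 were higher and 2 lower (against 23.1% and 8.45%). Neuronal markers were lower in 3 of 6 cases, with summed signals of 13612 and 63869. They were lower in 5 of 6 after the correction, quantile normalization and in the deposited values (against 15.5%, 19.6% and 19.2% of all genes). Microglial markers were lower in 4 of 5 cases (788 and 8592), and red cell markers were higher in 5 of 5 (49358 and 17442). Astrocyte markers were lower in 1 of 3 cases (473 and 2719) and in 3 of 3 in those same settings. Oligodendrocyte lineage markers had 1 higher and 1 lower of 5 (1507 and 2530), and mesenchymal and pericyte markers were higher in 2 of 3 (14285 and 20621). Most of the last sum was Col1a2 (13321 and 19951), which was within 2-fold at 0.36. All these sums are of signals not scaled between arrays, where an equal scaled level corresponds to a control signal 1.93 times the sevoflurane signal. Dcx, Snap25, Olig2 and Cx3cr1 were not measured here, nor was any of the 3 endothelial markers. The part of these cell types in the Zfp differences was not tested. The arrays also differed in detection, with 20538 probes well above background under sevoflurane and 16443 in the control. The headers give a different scan day for each array, so an effect of the day cannot be told apart from one of the gas.

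Some members have symbols that mark them as relatives, and how alike their sequences are was not examined. The files give no probe sequences, so any signal shared between Zfp455 and Zfp455l1 (-0.15 and 0.38), Zfp709 and Zfp709l1 (-0.57 and 0.91) or Zfp707 and Zfp707l1 (0.32 and 0.69) cannot be told apart from their own. Only 4 members had several probes. Besides Zfp68 and Zfp385a, the 3 probes of Zfp384 were at -0.35, -0.24 and -0.21, and those of Zfp458, a dim gene, at -0.19 and 0.18.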

How the data were processed

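The deposited scanner output gives each spot's linear intensity, written, per the file headers, by Agilent's Feature Extraction software (11.0.1.1). Its processed signal is corrected for background but not scaled between arrays. The authors' deposited value table was read as log2 intensity (correlation of its differences with quantile-normalized ones 0.998 over measured probes) and its method was not stated. Control spots and spots with outlier flags (521 and 580 of 42136) were left out, the processed signal was taken to log2 and each array's 75th percentile over probes was subtracted. Both arrays measured 16047 of 24629 usable probes, none saturated. Each gene was represented by its brightest measured probe, by mean level.

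The gene table (GRCr8) named 14274 of 15323 RefSeq mRNA probes. The array design refers to rn4, so coordinates appear only for promoters. Protein sequences were not used here. The alternatives were quantile, median and detected-probe scaling, a lowess curve on level (span 0.3), normexp (limma 3.58.1, offset 50, on median signals, as mean signals are not in the files), the deposited table, other filters, probe averages and a 1.5-fold rule. Functions were tested on simulated data. Versions were Python 3.11.15, numpy 2.4.6, pandas 2.3.3 and statsmodels 0.14.6.

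No p-value is given, as each group has 1 array, whose number limits the precision. The members and lists were chosen with earlier results of these data known. Named genes were the 10 highest and 10 lowest among members brighter than the median measured gene, the 5 highest and 5 lowest of the rest, role list members, genes with probes of opposite sign, the 5 brightest, those next to the 2-fold line, the strongest bounds, and Trim28, Setdb1 and KRAB partners past 2-fold. Zfp genes in runs of neighbours, genes with related symbols, members listed for a count, and marker genes were named besides.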

Additional observations from a re-analysis of the deposited data

How the results depend on the processing

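The Zfp median was below 0 and below the median of all measured genes in each setting run. It was -0.71 after quantile normalization, -1.44 after median scaling, -0.59 with the brightness trend removed (the correction) and -0.70 from the deposited values. Its distance from the median of all genes was -1.08 without a filter on dim probes, where many dim genes are higher, and -0.41 among the brighter genes (-0.37 after the correction). Members at least 2-fold higher numbered 1 after quantile normalization, median scaling, the correction and in the deposited table, 18 without the filter, 22 at 1.5-fold and 0 among the brighter genes. Those lower numbered 53 after quantile normalization, 96 after median scaling, 51 in the deposited table, 15 after normexp, 56 at 1.5-fold and 12 among the brighter genes. With differences recentred on the median of all genes, 42 were lower and 9 higher (30.9% and 6.62%, against 16.1% and 22.9% of all genes). Recentring and the restriction to brighter genes were chosen after seeing the data. The stricter filter changed nothing, since each member probe has 1 spot. Zfp54 was reversed at -1.29 (quantile), -0.028 (median scaling), -0.63 (correction) and -1.18 (deposited table), and Zfp653 at -0.056 (median scaling). The 16 measured genes of the partner list had 1 higher after the correction (against 15% of all genes). After quantile normalization the list had 1 higher and 2 lower (against 13.6% and 19.6%). The 32 Zbtb, 5 Zscan and Zkscan and 2 Znf genes together had 2 higher and 9 lower after the correction (against 15% and 15.5%). They had 0 higher and 15 lower after quantile normalization (against 13.6% and 19.6%). The cause of these shifts was not tested. No paired analysis was possible because each group has 1 array, and for the same reason no array could be left out. Signals near background limit what dim members can show.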
